A study of Homo sapiens with 18 samples.

Results

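The membrane-type matrix metalloproteinases are the 6 matrix metalloproteinases that stay anchored to the cell surface: MMP14, MMP15, MMP16, MMP17, MMP24 and MMP25. They were found by gene symbol and are 6 of the 62710 genes in the count table. RNA was sequenced in 18 libraries from spheroids, which are cell aggregates, of the established human breast cancer line MDA-MB-231, a triple-negative line. The targeted spheroids carry the genotype label MMP14-KO and the control spheroids the label Wildtype, and each genotype was sampled in 3 conditions with 3 libraries each: in hanging droplets after 5 days of formation, and after 24 h or 48 h of embedding in a collagen hydrogel. Each spheroid was started from 2000 cells and each sample held 100000 cells. Spheroids were freed from the gels with 2 mg/ml collagenase, whereas those in droplets were only washed off. How MMP14 was disrupted, where in the gene, and whether the targeted cells are 1 clone or a pool is not given in the sources used here. Total counts ran from 19819401 to 33352163 per library.

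Membrane-type MMPs are made as inactive proenzymes whose prodomain is removed by furin-like convertases on the way to the cell surface. MMP14, MMP15, MMP16 and MMP24 are held in the membrane by a transmembrane segment, while MMP17 and MMP25 are held by a glycosylphosphatidylinositol anchor. MMP14 cleaves fibrillar collagen at the front of invading cancer cells and, together with TIMP2, activates the secreted gelatinase MMP2. The comparison of targeted with control spheroids asks whether the transcript of any of the other 5 members rises where MMP14 is disrupted.

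The 6 genes share the metalloproteinase catalytic domain, and the stretch that codes for its zinc-binding motif shows how alike their transcripts are where they are most conserved. The sequences were read from GENCODE 29 transcript sequences, with GRCh38 positions from the same annotation. A search of each gene's longest translated coding sequence found the motif once per gene, in exon 5. The stretches printed below lie on the plus strand at chr14:22843268-22843330 (MMP14), chr16:58040548-58040610 (MMP15), chr20:35263802-35263864 (MMP24), chr12:131841644-131841706 (MMP17) and chr16:3057053-3057115 (MMP25), and capitals mark the 33 bases of the motif. The stretch of MMP16, on the minus strand, is not printed, and its matches over the motif are not given.
MMP14: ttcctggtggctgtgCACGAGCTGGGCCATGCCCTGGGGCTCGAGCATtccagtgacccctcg
MMP15: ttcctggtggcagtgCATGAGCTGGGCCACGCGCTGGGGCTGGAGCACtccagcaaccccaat
MMP24: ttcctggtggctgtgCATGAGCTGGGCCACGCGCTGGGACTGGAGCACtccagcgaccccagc
MMP17: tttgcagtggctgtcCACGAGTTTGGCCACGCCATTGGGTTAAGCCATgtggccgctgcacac
MMP25: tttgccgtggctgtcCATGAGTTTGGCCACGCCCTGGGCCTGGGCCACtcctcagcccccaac
Over these 33 bases MMP14 matched MMP15 at 28 positions, MMP24 at 27, MMP25 at 24 and MMP17 at 23, and MMP15 matched MMP24 at 32. The longest identical run between annotated transcripts of 2 members was 26 bases, for MMP14 with MMP24 and for MMP15 with MMP24, against reads of 151 bases. MMP14 has 1 further stretch of interest, the convertase recognition motif at the end of its prodomain, in exon 3 at chr14:22841962-22842003, with the 12 motif bases in capitals.
MMP14 convertase motif: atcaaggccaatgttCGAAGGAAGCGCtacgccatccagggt

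Of the 6 members, 4 were expressed highly enough to be tested, and MMP14 was far above the rest. Levels are given as CPM, read counts scaled to library size with TMM factors, and comparisons of levels between genes use CPM per kilobase of exon. Per kilobase, MMP14 ranged from 30.9 to 504.0 over the 18 libraries. MMP15, a transmembrane paralog that also cleaves matrix proteins, followed at 1.56 to 3.02 CPM per kilobase, and MMP16, a transmembrane paralog that can activate pro-MMP2, at 0.372 to 1.17. MMP24, best known from the nervous system, ranged from 0.0354 to 0.466 CPM per kilobase, MMP25, first described in leukocytes, from 0.019 to 0.114, and MMP17 from 0 to 0.0781. The ranges of MMP14, MMP15 and MMP16 were separate, whereas MMP24 overlapped MMP16, MMP25 overlapped MMP24, and MMP17 overlapped MMP25. Within libraries MMP16 was above MMP24 in 18 of 18, MMP24 above MMP25 in 17, and MMP25 above MMP17 in 14. MMP14 made up 91.24% ± 1.53 of the summed level of the 6 genes in targeted libraries and 99.16% ± 0.127 in control libraries (SD, n = 9 each). The lowest share in any targeted library was 88.9%, so MMP14 was the most abundant of the 6 transcripts in each of the 18 libraries.

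**Figure D1:**
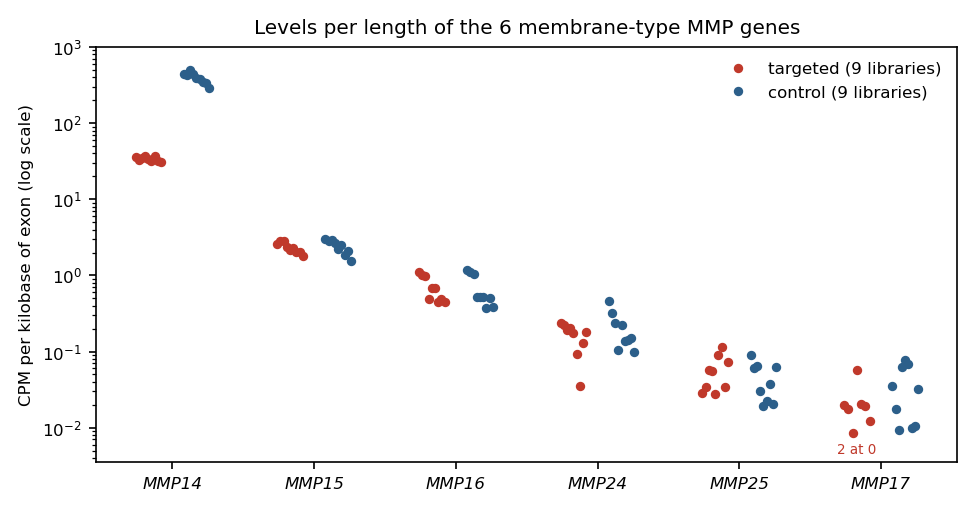
CPM per kilobase of exon (log scale) of the 6 genes, with 1 point per library, 9 targeted libraries at the left and 9 control libraries at the right of each gene, ordered within each set from droplets through 24 h to 48 h. MMP14 lies at or above 30.9 CPM per kilobase in every library, and the other 5 genes lie at or below 3.02, with MMP17 at 0 in 2 targeted libraries.

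The 4 tested genes had 371 (MMP24) to 443280 (MMP14) counts summed over the libraries. MMP17, with 50 counts, and MMP25, with 94, missed the filter on low counts, which asks for at least 0.397 CPM in enough libraries. MMP17 reached that level in 0 and MMP25 in 1 of 18 libraries. In the annotation, MMP14 lies at chr14:22836557-22849027, MMP15 at chr16:58025566-58046901, MMP16 at chr8:88032009-88328025, MMP17 at chr12:131828393-131851783, MMP24 at chr20:35226654-35277000 and MMP25 at chr16:3046681-3060726, all on the plus strand except MMP16. Exons of 2 members overlap a better-covered gene on the opposite strand. MMP24 shares 799 bases (18.1% of its exon length) with MMP24OS, which had 885 to 2646 counts per library, and 162 bases with AL121753.2, which had 39 to 99. MMP25 shares 1454 bases (35.2%) with MMP25-AS1, which had 44 to 121 counts. Whether counting used the strand is not given in the sources used here, so over these shared bases reads of MMP24 and MMP25 cannot be told apart from those of their neighbours.

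Cell markers were set beside the label of a triple-negative line. VIM ran from 1929.7 to 3834 CPM. Of 5 hormone receptor and HER2 markers, which should be low in such a line, 2 averaged over 1 CPM in both genotypes. ESR1 reached at most 0.308 CPM, PGR at most 0.209 and FOXA1 at most 0.595, while ERBB2 ran from 65.2 to 78.7 and GATA3 from 6.74 to 10.6. All 5 mesenchymal line markers averaged over 1 CPM in both genotypes, as did 3 of 5 fibroblast markers, with summed levels of 31.8 to 57.4 CPM in targeted and 32.6 to 48.3 CPM in control libraries. Of the leukocyte markers, 1 of 5 averaged over 1 CPM, CSF3R and CD3E were at 0 in every library, and the sum was 11.6 to 30.1 CPM in targeted and 7.86 to 23.7 CPM in control libraries. Of 5 endothelial markers, 3 averaged over 1 CPM (PECAM1, KDR and TIE1), CDH5 reached at most 0.14 CPM, and the sum was 37.7 to 52.1 CPM in targeted and 17.9 to 37.6 CPM in control libraries. The part of these markers in the genotype comparisons was not tested. As in any bulk sample, fewer cells that express a gene and less of its RNA per cell cannot be told apart.

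MMP14 itself checks the labels, and its transcript was strongly reduced but present in every targeted library. In droplets it had 158.9, 148.8 and 155.7 CPM in targeted spheroids, against 1956, 1928 and 2249.7 CPM in control spheroids. At 24 h the values were 165.6, 151.4 and 142.6 CPM in targeted and 1976, 1767 and 1713 CPM in control spheroids. At 48 h they were 163.1, 142.8 and 137.9 CPM in targeted and 1550.1, 1506 and 1284 CPM in control spheroids. The genotypes did not overlap in any condition, and each targeted library still held 2783 to 4561 MMP14 counts. The mean of targeted spheroids was 7.55% of that of control spheroids in droplets, 8.43% at 24 h and 10.2% at 48 h. The log2 fold changes were -3.73 (SE 0.0903), -3.57 (SE 0.0898) and -3.29 (SE 0.0889), with adjusted p = 1.12e-16, 1.64e-16 and 4.84e-16 by edgeR's quasi-likelihood test with Benjamini-Hochberg adjustment over 17030 genes. These counts cover the whole gene, so RNA that lacks or carries the disrupted part is counted alike, and protein was not measured.

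**Figure D2:**
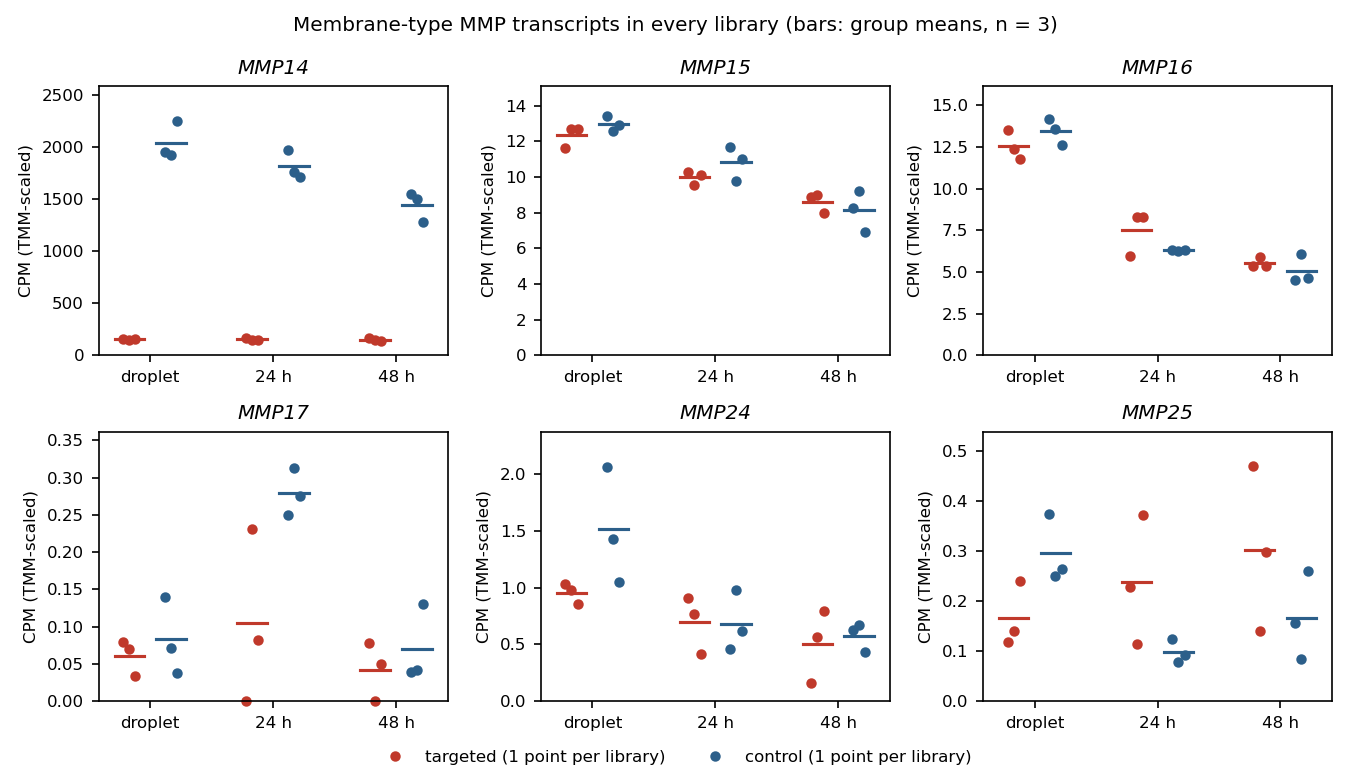
CPM of each of the 6 genes in every library (vertical axes, 1 scale per gene), by condition, with 3 targeted libraries left of 3 control libraries and a bar at each group mean. MMP14 separates the genotypes in all 3 conditions, from 137.9 to 165.6 CPM in targeted and from 1284 to 2249.7 CPM in control libraries, while MMP15 and MMP16 overlap between genotypes throughout.

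None of the other 3 tested members rose or fell in targeted spheroids in any condition. By edgeR 0 of 3 passed in droplets, where 17.4% of all genes tested passed, 0 of 3 at 24 h (29.4% of all genes), 0 of 3 at 48 h (29.5%), and 0 of 3 in the average over the conditions (44.2%). DESeq2 called 0 in each of these 4 comparisons, and at an unadjusted p under 0.05 only MMP16 at 24 h passed in edgeR. Averaged over the conditions, the log2 fold change was -0.03 for MMP15 (95% interval -0.15 to 0.09), 0.10 for MMP16 (-0.06 to 0.25) and -0.29 for MMP24 (-0.79 to 0.21). A missed threshold does not show that the levels were equal, so each of these 3 tested paralogs is given with its interval. Where groups of 3 libraries are said not to overlap, the share of all genes that separate likewise was not counted. Separation alone is therefore not read as a difference.

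MMP15 had 11.6, 12.7 and 12.7 CPM in targeted droplets and 13.4, 12.6 and 12.9 CPM in control droplets. In collagen for 24 h it had 10.3, 9.54 and 10.1 CPM in targeted and 11.7, 9.78 and 11 CPM in control spheroids. At 48 h it had 8.90, 8.97 and 7.98 CPM in targeted and 8.26, 9.19 and 6.91 CPM in control spheroids. The genotypes overlapped in all 3 conditions. Its log2 fold change was -0.07 in droplets (95% interval -0.27 to 0.13, adjusted p = 0.68 by edgeR), -0.11 at 24 h (-0.32 to 0.09, adjusted p = 0.414) and 0.09 at 48 h (-0.13 to 0.30, adjusted p = 0.574). A rise of MMP15 of more than 1.24-fold, the top of the widest of these intervals, lies outside all 3.

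MMP16 had 13.5, 12.4 and 11.8 CPM in targeted droplets and 14.2, 13.6 and 12.6 CPM in control droplets. At 24 h it had 5.96, 8.31 and 8.30 CPM in targeted spheroids, against 6.30, 6.26 and 6.32 CPM in control spheroids. At 48 h it had 5.35, 5.92 and 5.35 CPM in targeted and 4.5, 6.1 and 4.66 CPM in control spheroids. At 24 h, 2 targeted libraries lay above all 3 control libraries and 1 lay below them, so the groups overlapped. The log2 fold change at 24 h was 0.26 (95% interval 0.00 to 0.52, adjusted p = 0.124 by edgeR), and without targeted replicate 1 it was 0.40 with adjusted p = 0.0194, which passes. The difference was -0.10 in droplets (-0.34 to 0.14, adjusted p = 0.62 by edgeR) and 0.12 at 48 h (-0.16 to 0.41, adjusted p = 0.537). Of the tested paralogs, MMP16 at 24 h alone gained a genotype call when single libraries were left out.

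MMP24 was low, with 4 to 44 counts per library. In droplets it had 1.03, 0.98 and 0.854 CPM in targeted spheroids and 2.06, 1.43 and 1.05 CPM in control spheroids, 3 values that all lay above the targeted ones. On the log2 scale it differed there by -0.65 (95% interval -1.41 to 0.11, adjusted p = 0.253 by edgeR). At 24 h it had 0.91, 0.77 and 0.413 CPM in targeted and 0.459, 0.978 and 0.614 CPM in control spheroids, and at 48 h it had 0.156, 0.564 and 0.793 CPM in targeted and 0.626, 0.668 and 0.432 CPM in control spheroids. Both of these pairs overlapped, with log2 fold changes of 0.02 (-0.84 to 0.88, adjusted p = 0.974 by edgeR) and -0.24 (-1.19 to 0.71, adjusted p = 0.737). At this depth a rise of up to 1.85-fold at 24 h stays inside the interval. MMP24OS, the overlapping gene on the other strand, fell in targeted spheroids, by 0.40 (log2) in droplets, by 0.27 at 24 h and by 0.40 at 48 h (adjusted p = 0.000202, 0.00527 and 0.00023 by edgeR), and its part in the MMP24 values was not tested.

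The members with a glycosylphosphatidylinositol anchor were near the limit of detection. MMP17 summed to 5, 8 and 3 counts in targeted spheroids in droplets, at 24 h and at 48 h, and to 6, 23 and 5 counts in control spheroids. It was at 0 in 2 targeted libraries, replicate 1 at 24 h and replicate 2 at 48 h, where 3 counts, the limit that a count of 0 allows, correspond to 0.136 and 0.141 CPM. At 24 h it had 0, 0.231 and 0.0826 CPM in targeted and 0.25, 0.313 and 0.276 CPM in control spheroids, which did not overlap. Over all 9 libraries of each genotype MMP17 held 16 counts (exact Poisson 95% interval 9.15 to 26.0) in targeted and 34 (23.5 to 47.5) in control spheroids. The mean was 0.0694 CPM in targeted and 0.144 CPM in control libraries, a difference of -0.0749 CPM with p = 0.0315 in a two-sided exact permutation test within conditions, and adjusted p = 0.063 over the 2 genes tested this way. The smallest p that this test allows is 0.00025. Intervals of this kind cover counting error only.

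MMP25 summed to 14, 17 and 21 counts in targeted spheroids in droplets, at 24 h and at 48 h, and to 22, 8 and 12 counts in control spheroids. In droplets it had 0.119, 0.14 and 0.239 CPM in targeted and 0.374, 0.25 and 0.263 CPM in control libraries, which did not overlap and were lower in targeted ones. These values rest on 3 to 7 counts per targeted and 7 to 8 per control library. At 24 h it had 0.227, 0.115 and 0.372 CPM in targeted and 0.125, 0.0782 and 0.0921 CPM in control libraries, and at 48 h 0.469, 0.141 and 0.297 CPM in targeted and 0.157, 0.0835 and 0.259 CPM in control libraries, and both of these overlapped. Over all conditions the mean was 0.235 CPM in targeted and 0.187 CPM in control libraries (two-sided exact permutation p = 0.39, adjusted p = 0.39 over the 2 genes). Its antisense neighbour MMP25-AS1 rose in targeted spheroids at 48 h, to 3.67 CPM ± 0.609, against 2.31 ± 0.409 in control spheroids (SD, n = 3 each; log2 fold change 0.66, adjusted p = 0.0371 by edgeR). Its part in the MMP25 values was not tested. Fitted without the filter, neither gene passed in any of the 13 comparisons, with adjusted p of at least 0.134 for MMP17 and 0.106 for MMP25 by edgeR. In that fit the log2 fold change of MMP25, targeted minus control, was -0.78 (SE 0.664) in droplets, 1.24 (SE 0.743) at 24 h and 0.86 (SE 0.683) at 48 h. For MMP17 it was -0.38 (SE 1.04), -1.33 (SE 0.835) and -0.61 (SE 1.16). At these counts a rise of MMP25 in collagen cannot be told from none.

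**Figure D3:**
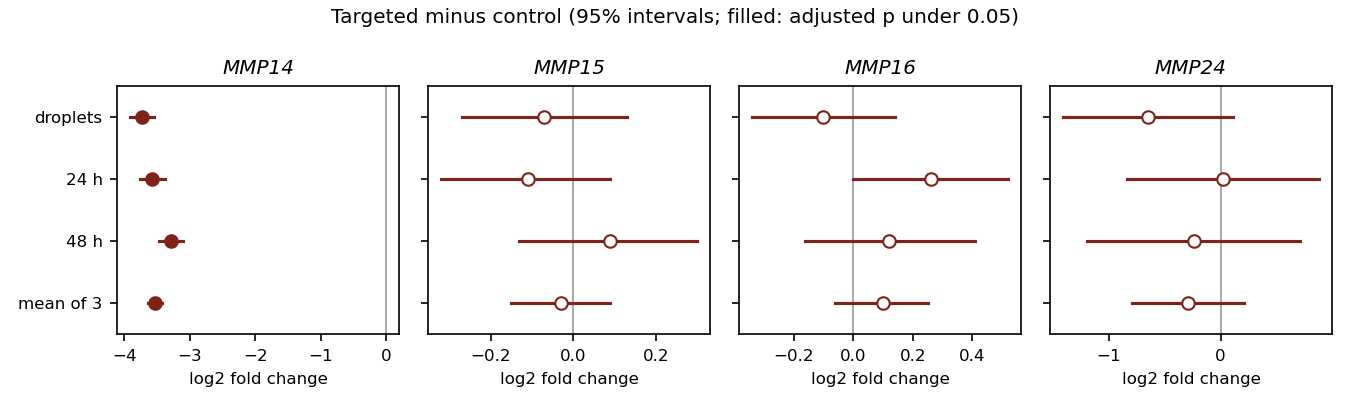
Log2 fold change of targeted minus control spheroids (horizontal axes, 1 scale per gene) for the 4 tested genes in droplets, at 24 h, at 48 h and averaged, with 95% intervals and filled points where the adjusted p is under 0.05. MMP14 lies between -3.73 and -3.29 with all points filled, and no point of MMP15, MMP16 or MMP24 is filled, with the interval of MMP16 at 24 h running from 0.00 to 0.52.

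Summed per kilobase, the other 5 members came to 4.09 ± 0.0743 CPM per kilobase in targeted droplets and 4.48 ± 0.267 in control droplets, and the libraries did not overlap. At 24 h the sums were 3.13 ± 0.0474 in targeted and 3.22 ± 0.158 in control spheroids, and at 48 h 2.61 ± 0.0861 in targeted and 2.45 ± 0.312 in control spheroids (SD, n = 3 each), both overlapping. MMP14 itself was lower in targeted spheroids by 423.5 CPM per kilobase in droplets, 373.1 at 24 h and 290.9 at 48 h. The whole level of the 5 paralogs in targeted spheroids was thus 0.967%, 0.838% and 0.896% of the MMP14 difference in the 3 conditions. With MMP15, MMP16 and MMP24 each placed at the top of its 95% interval, their summed gain would be 0.405, 0.518 and 0.651 CPM per kilobase, which is 0.0957%, 0.139% and 0.224% of that difference. These are amounts of RNA per length and say nothing of enzyme activity.

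Spheroids in collagen were compared with those in droplets within each genotype. Each tested member that passed in a comparison of collagen with droplets fell, and none rose. Both times are set against the same droplet libraries, and the matrix, the time and the collagenase digestion change together and cannot be told apart. At 24 h against droplets, 3 of 4 tested members passed in control spheroids, where 56.5% of all genes passed and 28.7% fell, and 2 of 4 in targeted spheroids, where 51.1% passed and 25.7% fell. At 48 h against droplets 4 of 4 fell in control spheroids (55.2% of all genes passed and 27.5% fell) and 2 of 4 in targeted spheroids (49.4% passed and 23.6% fell).

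MMP16 fell in both genotypes at both times. In droplets, at 24 h and at 48 h it averaged 12.5 ± 0.849, 7.52 ± 1.36 and 5.54 ± 0.327 CPM in targeted spheroids, and 13.5 ± 0.764, 6.29 ± 0.0341 and 5.09 ± 0.879 CPM in control spheroids (SD, n = 3 each). At 24 h against droplets MMP16 differed by -0.73 on the log2 scale (SE 0.119, adjusted p = 2.58e-05 by edgeR) in targeted and -1.09 (SE 0.121, adjusted p = 8.05e-08) in control spheroids. At 48 h it was -1.18 (SE 0.125, adjusted p = 8.96e-08 by edgeR) in targeted and -1.40 (SE 0.125, adjusted p = 4.02e-09) in control spheroids. The groups in collagen did not overlap those in droplets. Between 24 h and 48 h MMP16 differed by -0.45 in targeted (adjusted p = 0.0576 by edgeR) and -0.31 in control spheroids (adjusted p = 0.131), neither of which passed. The targeted difference passed without targeted 24 h replicate 1 (-0.60, adjusted p = 0.0113) or control 48 h replicate 2 (-0.45, adjusted p = 0.0414), and the control one without control 48 h replicate 2 (-0.46, adjusted p = 0.0427). DESeq2 called it in targeted spheroids as well (adjusted p = 0.0288).

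MMP15 fell by less in both genotypes. In droplets, at 24 h and at 48 h it averaged 12.3 ± 0.641, 10.0 ± 0.405 and 8.62 ± 0.555 CPM in targeted spheroids, and 13 ± 0.386, 10.8 ± 0.966 and 8.12 ± 1.15 CPM in control spheroids (SD, n = 3 each). At 48 h against droplets the difference was -0.51 on the log2 scale (SE 0.1, adjusted p = 0.000204 by edgeR) in targeted and -0.67 (SE 0.1, adjusted p = 5.99e-06) in control spheroids. The 24 h difference was -0.30 (adjusted p = 0.013 by edgeR) in targeted and -0.26 (adjusted p = 0.0257) in control spheroids. These earlier calls rest on single libraries: the targeted one was lost without targeted 24 h replicate 2 (-0.28, adjusted p = 0.0524), and the control one without control droplet replicate 1 (adjusted p = 0.074), control droplet replicate 3 (0.0591) or control 24 h replicate 2 (0.127), and also with no filter (0.0699). From 24 h to 48 h MMP15 fell further in control spheroids, by 0.41 (log2, adjusted p = 0.00852 by edgeR, where 13.2% of all genes passed), which was lost without control 48 h replicate 3 (adjusted p = 0.0549). In targeted spheroids that difference was -0.21 (adjusted p = 0.294 by edgeR, where 3.81% of all genes passed).

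MMP24 fell in control spheroids, with log2 fold changes of -1.13 at 24 h (SE 0.382, adjusted p = 0.0153 by edgeR) and -1.37 at 48 h (SE 0.396, adjusted p = 0.0054). In droplets, at 24 h and at 48 h its mean was 0.955 ± 0.0912, 0.698 ± 0.256 and 0.504 ± 0.322 CPM in targeted spheroids, and 1.51 ± 0.507, 0.684 ± 0.266 and 0.575 ± 0.126 CPM in control spheroids (SD, n = 3 each). In targeted spheroids the differences were -0.45 at 24 h (adjusted p = 0.363 by edgeR) and -0.96 at 48 h (adjusted p = 0.0661), and the 48 h difference passed without targeted 48 h replicate 3 (-1.46, adjusted p = 0.0196) and with no filter (-0.97, adjusted p = 0.0475). The 24 h call in control spheroids was lost without control droplet replicate 1 (-0.86, adjusted p = 0.0918), control 24 h replicate 1 (-0.92, adjusted p = 0.0666) or control 24 h replicate 3 (-1.05, adjusted p = 0.0559). MMP24OS fell alongside it, by 0.62 and 0.58 (log2) in targeted and by 0.74 and 0.58 in control spheroids at 24 h and 48 h. Its part in the MMP24 values was not tested.

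MMP14 stayed level in targeted spheroids and fell in control spheroids by 48 h. Against droplets the 48 h difference was -0.06 (SE 0.083, 95% interval -0.23 to 0.11, adjusted p = 0.566 by edgeR) in targeted and -0.50 (SE 0.0808, adjusted p = 2.37e-05) in control spheroids. The 24 h difference was -0.01 (adjusted p = 0.919 by edgeR) in targeted and -0.17 (adjusted p = 0.0801) in control spheroids, and the control difference passed without control 24 h replicate 1 (-0.23, adjusted p = 0.0272), with scaling by library size alone (-0.19, adjusted p = 0.0455), with no filter (-0.16, adjusted p = 0.0193) and with a replicate block (-0.17, adjusted p = 0.0395). From 24 h to 48 h MMP14 differed by -0.33 in control spheroids (SE 0.0807, adjusted p = 0.00918 by edgeR), where 13.2% of all genes passed. This difference passed in each of the 18 fits that leave out 1 library (adjusted p = 0.00486 to 0.0494). In targeted spheroids it was -0.05 (adjusted p = 0.817 by edgeR), where 3.81% of all genes passed. The interaction of genotype with 48 h against droplets was 0.44 (SE 0.116, adjusted p = 0.0297 by edgeR), and MMP14 was the 1 member that passed it, where 6.79% of all genes did. It was lost on leaving out any of 8 single libraries: control droplet replicates 1 and 3, all 3 targeted droplet replicates, control 48 h replicate 3, and targeted 48 h replicates 1 and 2, with adjusted p of 0.0517 to 0.0947 and values of 0.35 to 0.46.

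The fall of the paralogs was not shown to differ between genotypes. In the interaction with 24 h against droplets 0 of 4 members passed by edgeR, where 7.41% of all genes did, and DESeq2 called 0. At an unadjusted p under 0.05 MMP16 alone passed (0.36, SE 0.17, adjusted p = 0.198 by edgeR). In the interaction with 48 h against 24 h 0 members passed by edgeR and by DESeq2, with MMP14 alone under an unadjusted 0.05 (0.28, SE 0.116, adjusted p = 0.748 by edgeR), and edgeR called 0% of all genes.

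**Figure D4:**
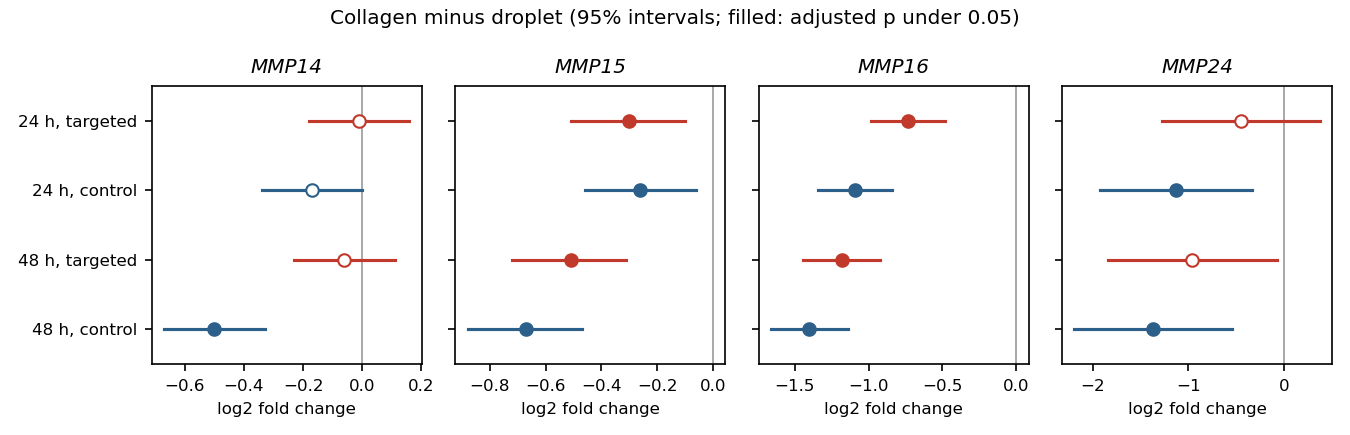
Log2 fold change of collagen minus droplet (horizontal axes, 1 scale per gene) at 24 h and 48 h, with targeted above control spheroids, 95% intervals and filled points where the adjusted p is under 0.05. MMP15 and MMP16 are filled and below 0 in all 4 rows, MMP24 is filled in control spheroids at both times, and MMP14 is filled only in control spheroids at 48 h (-0.50).

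The other genes around MMP14 were read from 5 lists of convertases, inhibitors, collagen-cleaving proteases, surface partners, and trafficking and invadopodium genes. Some transcripts of secreted collagenases and gelatinases were higher in targeted spheroids. Of 7 listed collagenolytic proteases 5 were tested, and 2 rose and 0 fell in each condition, where 7.70%, 13.7% and 14.4% of all genes rose in droplets, at 24 h and at 48 h. MMP8, with 0 to 2 counts per library, and FAP, with 0 to 13, were not tested. The list's median log2 fold change was 0.11, 0.27 and 0.46 in the 3 conditions, against -0.00125, 0.0049 and 0.000839 over all genes.

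MMP9, a gelatinase, rose in every condition, to 3.39 ± 0.405 CPM in targeted against 0.748 ± 0.272 in control droplets, 2.19 ± 0.34 against 0.487 ± 0.0162 CPM at 24 h, and 1.69 ± 0.316 against 0.232 ± 0.0729 CPM at 48 h (targeted against control, SD, n = 3 each). Its log2 fold changes were 2.17 (SE 0.247), 2.16 (SE 0.267) and 2.82 (SE 0.316), with adjusted p = 1.57e-06, 4.65e-06 and 1.23e-06 by edgeR. MMP9 was low, and its control mean at 48 h lay below the 0.397 CPM of the filter, so the size of that fold change rests on few counts. MMP2, the gelatinase that MMP14 activates, rose at 24 h (2.71 ± 0.368 CPM in targeted, 1.44 ± 0.196 in control spheroids; log2 fold change 0.91, adjusted p = 0.00681 by edgeR) and at 48 h (3.15 ± 0.983 CPM in targeted, 1.11 ± 0.36 in control spheroids; 1.51, adjusted p = 0.000126). In droplets its difference was 0.11 (adjusted p = 0.823 by edgeR). MMP1, an interstitial collagenase and the most abundant of these, rose in droplets, to 363.6 ± 25 CPM in targeted against 201.8 ± 47.5 in control spheroids (0.85, adjusted p = 0.00595 by edgeR), and differed by 0.14 at 24 h (adjusted p = 0.621) and 0.42 at 48 h (adjusted p = 0.105), which passed with no filter (0.40, adjusted p = 1.31e-09) and in a non-robust fit (0.045). The no-filter fit hardly moved this estimate but shifted its adjusted p far, so that pass carries little weight.

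Among 5 inhibitors of membrane-type MMPs, 1 rose and 2 fell in droplets, 1 rose and 1 fell at 24 h, and 2 rose and 1 fell at 48 h. Of all genes 7.70%, 13.7% and 14.4% rose and 9.70%, 15.7% and 15.1% fell in the 3 conditions. The median log2 fold changes were -0.01, 0.23 and -0.04. The 3 calls in droplets became 1 without control droplet replicate 2, and the 2 calls at 24 h became 4 without targeted 24 h replicate 1. TIMP2, the inhibitor through which MMP14 binds pro-MMP2, fell in each condition, to 669.7 ± 18 CPM in targeted against 951.6 ± 25.1 in control droplets, 968.4 ± 19.2 against 1191 ± 23.0 CPM at 24 h, and 858.0 ± 53.7 against 1094 ± 63.8 CPM at 48 h (targeted against control, SD, n = 3 each). Its log2 fold changes were -0.51, -0.30 and -0.35, with adjusted p = 4.37e-07, 0.000225 and 4.02e-05 by edgeR. TIMP3, which inhibits membrane-type MMPs and binds matrix, rose by 0.57 (log2) at 24 h and by 0.57 at 48 h (adjusted p = 0.00105 and 0.00111 by edgeR), with 0.23 in droplets (adjusted p = 0.181), which passed with a replicate block (0.0477), with only the groups compared (0.0232) and with no filter (0.00115). TIMP1, a weak inhibitor of MMP14, rose by 0.40 in droplets (adjusted p = 0.0167 by edgeR) and by 0.40 at 48 h (adjusted p = 0.0107). Its droplet call was lost without control droplet replicate 1 (adjusted p = 0.0659), control droplet replicate 2 (0.0775) or targeted droplet replicate 3 (0.0605), and its 48 h call without control 48 h replicate 3 (0.0641) or targeted 48 h replicate 1 (0.0538). At 24 h TIMP1 differed by 0.23 (adjusted p = 0.119 by edgeR) and passed without targeted 24 h replicate 1 (0.33, adjusted p = 0.0377), with scaling by library size alone (0.29, adjusted p = 0.0484) and with no filter (adjusted p = 0.000821). TIMP4 fell in droplets (-0.72, adjusted p = 0.0161 by edgeR), lost without control droplet replicate 2 (0.0851) or targeted droplet replicate 1 (0.0866), and passed in the other direction at 24 h without targeted 24 h replicate 1 (0.65, adjusted p = 0.0269), where all 3 replicates gave 0.47 (adjusted p = 0.0901).

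Of the convertases that can remove the prodomain at the motif printed above, FURIN, PCSK5, PCSK6 and PCSK7, 4 of 4 were tested and 0 rose. In droplets and at 24 h 1 of 4 passed, and at 48 h 0, where 17.4%, 29.4% and 29.5% of all genes passed. PCSK7 alone fell, in droplets by 0.27 and at 24 h by 0.22 (log2, adjusted p = 0.0248 and 0.0347 by edgeR), with 0.04 at 48 h (adjusted p = 0.783). The droplet call was lost without control droplet replicate 1 (-0.14, adjusted p = 0.239) or any targeted droplet replicate (0.0529 to 0.0929), and with only the groups compared (0.0735). The 24 h call was lost without control 24 h replicate 2 or 3 or targeted 24 h replicate 1 or 2 (adjusted p = 0.0771 to 0.111) and with scaling by library size alone (-0.17, adjusted p = 0.108).

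Of 14 cell-surface substrates and partners of MMP14, 1 rose and 1 fell in droplets, 2 rose and 5 fell at 24 h, and 3 rose and 5 fell at 48 h, with median log2 fold changes of -0.07, -0.09 and -0.12. Over all genes 7.70% rose and 9.70% fell in droplets, 13.7% and 15.7% at 24 h, and 14.4% and 15.1% at 48 h. The 2 calls in droplets became 4 without control droplet replicate 3 or targeted 48 h replicate 1. The genes named next are the 4 with the largest absolute changes among those called. SDC1 at 24 h is the only called fall among them, so the other genes that fell are not named. ITGB3, the beta subunit of an integrin whose alpha chain MMP14 processes, rose in each condition, to 84.0 ± 6.69 CPM in targeted against 41.1 ± 1.98 in control droplets, 52.0 ± 3.31 against 27.6 ± 1.77 CPM at 24 h, and 43.3 ± 4.94 against 21.5 ± 2.29 CPM at 48 h (targeted against control, SD, n = 3 each; log2 fold changes 1.03, 0.91 and 1.01, adjusted p = 9.27e-09, 1.10e-07 and 4.65e-08 by edgeR). DDR1, a collagen receptor that MMP14 sheds, rose by 0.45 at 24 h and 0.62 at 48 h (adjusted p = 0.00627 and 0.000755 by edgeR), with -0.12 in droplets. LRP1, an endocytic receptor, rose at 48 h (0.60, adjusted p = 0.0116 by edgeR), a call lost without control 48 h replicate 3 (0.0539) or targeted 48 h replicate 2 (0.0589). At 24 h LRP1 differed by 0.41 (adjusted p = 0.0649 by edgeR), which passed in 5 other settings, DESeq2 among them (0.0474), and without control droplet replicate 1, targeted droplet replicate 2 or control 24 h replicate 1 (adjusted p = 0.0246 to 0.0429). SDC1, a shed heparan sulphate proteoglycan, fell at 24 h (-0.39, adjusted p = 0.000156 by edgeR). SDC1 differed the same way in droplets (-0.20, adjusted p = 0.055 by edgeR) and at 48 h (-0.17, adjusted p = 0.0575), neither of which passed. Both passed with no filter (adjusted p = 0.0411 and 0.0278), the 48 h difference also by DESeq2 (0.0487) and with RLE scaling (0.0467), and the droplet difference with only the groups compared (0.013) and with a minimum count of 30 (0.0494). The droplet difference passed without any one of the control 24 h replicates, control 48 h replicate 1 or targeted 48 h replicate 1 (adjusted p = 0.0185 to 0.048), and the 48 h difference without control 24 h replicate 1, targeted 24 h replicate 1 or control 48 h replicate 1 (0.0138 to 0.0417).

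The last list held 23 genes of MMP14 trafficking and of invadopodia, the protrusions that degrade matrix. Of these, 0 rose and 3 fell in droplets, 2 rose and 1 fell at 24 h, and 2 rose and 2 fell at 48 h. The median log2 fold changes were -0.03, 0.02 and -0.04. Among all genes 17.4%, 29.4% and 29.5% passed in the 3 conditions. The 3 calls in droplets became 1 without control droplet replicate 1 or 2 or targeted droplet replicate 3, and 5 without targeted 48 h replicate 1, and the 4 calls at 48 h became 7 without targeted droplet replicate 2. At 48 h the scaffold gene SH3PXD2B (TKS4) rose and its relative SH3PXD2A (TKS5) fell. SH3PXD2B differed by 0.00659 in droplets (adjusted p = 0.972 by edgeR) and rose by 0.33 at 24 h and 0.69 at 48 h (adjusted p = 0.00578 and 8.56e-06 by edgeR). SH3PXD2A fell by 0.26 in droplets, a call lost without control droplet replicate 3 (-0.18, adjusted p = 0.0593), and by 0.29 at 48 h (adjusted p = 0.00541 and 0.0016 by edgeR). At 24 h it differed by -0.16 (adjusted p = 0.0602 by edgeR), which passed with a replicate block (adjusted p = 0.031), with only the groups compared (0.0239), and without control droplet replicate 1 (0.05) or 3 (0.044) or targeted 48 h replicate 1 (0.0486). KIF5B, a kinesin heavy chain that moves MMP14 vesicles, fell by 0.28 at 24 h and by 0.35 at 48 h (adjusted p = 0.000391 and 4.60e-05 by edgeR). RAB5A, an early endosome GTPase, rose by 0.21 at 24 h (adjusted p = 0.00312 by edgeR) and by 0.16 at 48 h (adjusted p = 0.0163), the second of which was lost with no filter (0.0954), with only the groups compared (0.0717), and without control 48 h replicate 3 (0.134) or targeted 48 h replicate 2 (0.058) or 3 (0.0895).

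**Figure D5:**
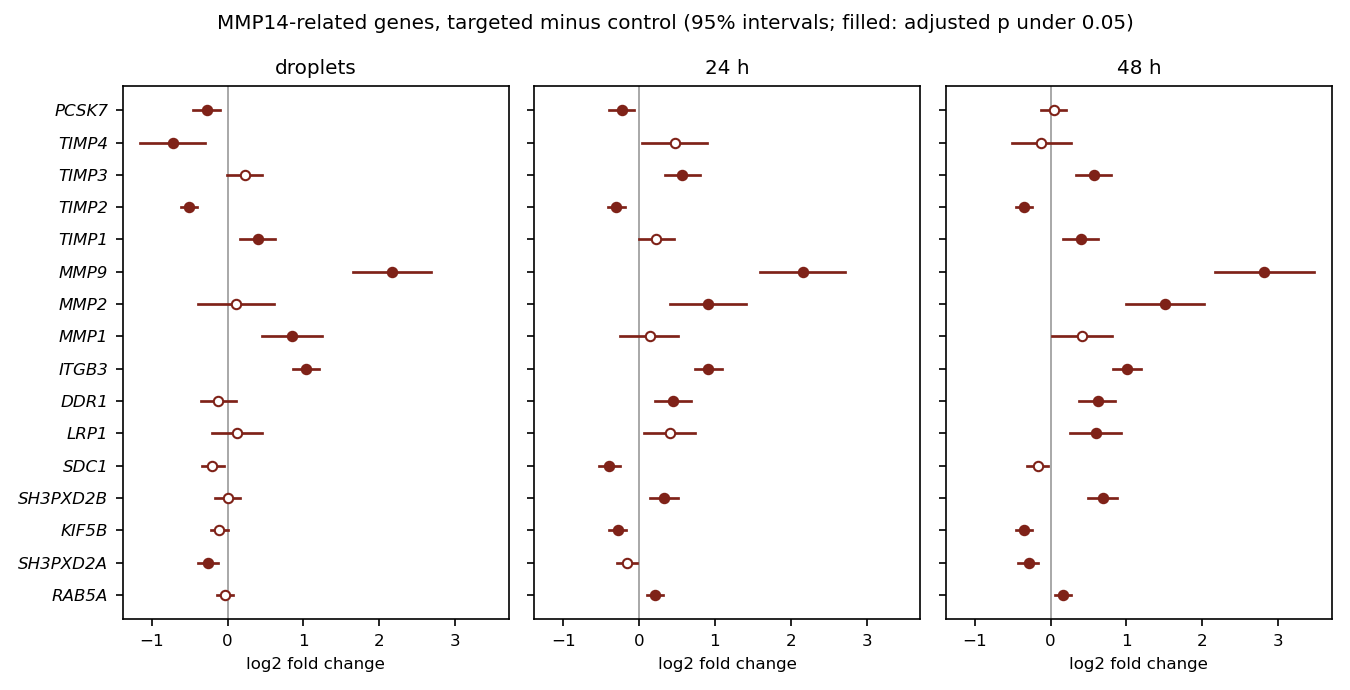
Log2 fold change of targeted minus control spheroids (horizontal axes, the same in all panels) for the 16 named genes of the 5 lists in droplets, at 24 h and at 48 h, with 95% intervals and filled points where the adjusted p is under 0.05. MMP9 lies farthest to the right in each panel (2.17, 2.16 and 2.82), and TIMP2 is filled and below 0 in all 3.

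The genes whose log2 CPM followed each tested member most closely over the 18 libraries were ranked by Pearson's r among 11435 named genes (11436 for MMP24). These correlations are descriptions across libraries that share genotype and condition. For MMP14 they were STT3A (0.978), NECTIN1 (0.969) and PPARD (0.966), and over the 9 control libraries alone PTPRU (0.974), SLC9A7 (0.973) and TSC22D1 (0.972). For MMP15 they were GALNS (0.949), PLD3 (0.945) and RND1 (0.934). For MMP16 they were MYLIP (0.968), SAR1A (0.965) and PDK4 (0.963), and for MMP24 SPAG9 (0.887), FCHO2 (0.86) and IGF2 (0.858).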

How the data were processed

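Per the labels' protocols, polyA RNA was sequenced as 151 bp read pairs, and per the submitters' processing notes the tools were cutadapt 2.3, FastQC 0.11.8, STAR 2.7.8a, RSEM 1.3.3, MultiQC 1.7 and DESeq2 1.42.0 on GRCh38. The deposited table holds the authors' expected counts per gene, all whole numbers, in 62714 rows, of which 4 reporter rows at 0 were left out. The sources used here give neither annotation release nor strand setting, and gene positions come from GENCODE 29. Groups follow the genotype and treatment labels. Nothing states that replicates came from separate cultures, so p-values measure only the spread between these samples.

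Genes were filtered in R 4.3.3 with edgeR 4.0.16 (filterByExpr, minimum count 10), keeping 17030, scaled by TMM and fitted in 1 robust quasi-likelihood model with a coefficient per group and 12 residual degrees of freedom. The Benjamini-Hochberg method was applied to the p-values of each of 13 contrasts on its own, with a threshold of 0.05. The SE is the absolute log2 fold change over the square root of F. Alternatives were RLE or library-size scaling, DESeq2 1.42.0, other filters, a replicate block, fits of only the groups compared, non-robust fits and leaving out each library. With no filter, adjusted p shifted far for some genes, MMP1, LRP1 and TIMP1 among them, while their estimates hardly moved. A pass in that fit is therefore given but carries little weight. The main fit was tested on simulated data for targeted against control spheroids at 24 h. It recovered 74.6% of 1.5-fold, 89.6% of 2-fold and 97% of 4-fold changes, and 4.4% of its calls were false. These changes were placed in 67, 67 and 66 of 16769 genes, whereas 29.4% of all genes passed at 24 h in the data. The rates may therefore differ in the data. Changes were placed only in better-covered genes, so levels as low as that of MMP24 were not covered. Fits of only the groups compared were not covered either. The members and gene lists were chosen with earlier results of these data known. All members are named, and of each list up to 4 genes that passed a genotype contrast with at least 1 CPM, by absolute log2 fold change.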

Additional observations from a re-analysis of the deposited data

Results flagged for a closer look

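The effect of 48 h in collagen on MMP14 differed between genotypes in the test of the difference itself: the interaction was 0.44 on the log2 scale, with SE 0.116 and an edgeR adjusted p = 0.0297. MMP14 differed between 48 h and droplets by -0.06 in targeted and by -0.50 in control spheroids. All 3 libraries of control spheroids at 48 h lay below all 3 in droplets, whereas the targeted libraries overlapped. Over the 18 fits that each leave out 1 library the interaction ran from 0.35 to 0.49 with adjusted p of 0.0218 to 0.0947, and it passed in 10 of them. The cause of the difference was not tested.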

How the results depend on the processing

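MMP14 kept its genotype call in all 103 alternative values, with log2 fold changes of -3.76 to -3.64 in droplets, -3.63 to -3.50 at 24 h and -3.37 to -3.24 at 48 h. Of 305 alternative values of the paralogs' genotype differences, 297 kept direction and side of the threshold, 1 became a call and 7 changed sign without passing. Leaving out single libraries gave 0.18 to 0.40 for MMP16 at 24 h, with 1 to 2 members called there, -0.02 to 0.18 for MMP15 at 48 h, -0.20 to 0.36 for MMP24 at 24 h and -0.73 to 0.23 for MMP24 at 48 h. With library size alone the averaged MMP15 difference was 0.0076. In the main fit 3 of 4 tested members were called for 24 h against droplets in control spheroids (56.5% of all genes). For 48 h against 24 h in control spheroids 2 of 4 were called (13.2% of all genes). In targeted spheroids the same comparisons called 2 and 0 of 4 (51.1% and 3.81% of all genes). The interaction with 48 h against droplets called 1 of 4 (6.79%). Over single libraries left out, the number of members called ran from 1 to 3 in both control comparisons. In targeted spheroids it ran from 1 to 2 and from 0 to 1, and for that interaction from 0 to 1. The number was 1 rather than 0 for 48 h against 24 h in targeted spheroids with library size alone, DESeq2, no filter or a minimum count of 30. Without division by length the MMP14 share was 88.49% in targeted and 98.89% in control libraries.

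Signs without a call turned as follows. MMP14 at 24 h against droplets in targeted spheroids was 0.0028 with library size alone, 0.005 with a minimum count of 30, and -0.07 to 0.03 over left-out libraries. Over left-out libraries the ranges were -0.10 to 0.008 (MMP15, interaction at 24 h), -0.28 to 0.0083 (MMP16, interaction of 48 h with 24 h), -0.44 to 0.08 (MMP24, 48 h against 24 h in control spheroids), -0.09 to 0.89 (MMP24, interaction at 48 h) and -0.75 to 0.20 (MMP24, interaction of 48 h with 24 h). For the listed genes they were, for targeted minus control, -0.04 to 0.08 (PCSK7, 48 h), -0.28 to 0.02 (TIMP4, 48 h), -0.06 to 0.20 (MMP2, droplets), -0.03 to 0.27 (LRP1, droplets) and -0.03 to 0.06 (SH3PXD2B, droplets).

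Deviations from group means of same-numbered libraries correlated at -0.0701 to 0.137 over 45 pairs, of which 2 were over 0.1. Libraries with different numbers correlated at -0.144 to 0.114 over 90 pairs, of which 1 was over 0.1. A correlation over all tested genes cannot show whether some genes are paired by replicate number. The replicate block changed 1 of 65 member results, making MMP14 at 24 h against droplets in control spheroids a call (-0.17, adjusted p = 0.0395). Among the named list genes it made calls of TIMP3 in droplets (0.23, adjusted p = 0.0477) and SH3PXD2A at 24 h (-0.16, adjusted p = 0.031) and ended none. Calls over all genes in the interaction at 48 h were 1156 without and 1838 with the block and 1761 by DESeq2. Among the 23 trafficking and invadopodium genes, 4 were called for targeted against control at 48 h, 7 with RLE scaling and 9 by DESeq2. Over all genes that comparison called 5029 of 17030, 5108 of 17030 with RLE scaling and 5036 of 17027 by DESeq2. These list counts are therefore not read as a result about the listed genes. The cause of these changes was not tested. Depth limits MMP17, MMP24 and MMP25, and MMP9 among the listed genes.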
